A study of Homo sapiens with 6 samples.

Results

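The gamma subunits of the heterotrimeric G proteins are a family of small proteins, and 10 of their genes were followed here in the human erythroleukemia line K562. The 10 genes were GNG2, GNG3, GNG4, GNG5, GNG7, GNG8, GNG10, GNG11, GNG12 and GNGT2, taken by gene symbol from a table of 34495 genes. They were chosen with the knockout value of GNG11 already known, so their values in the comparison of knockout with wild type are a description and carry no test. Messenger RNA was sequenced from 6 libraries of K562 cells, 3 labelled wild type and 3 labelled ARID4B knockout. The titles and the cell line field name K562 for all of them, while the source name of the knockout libraries reads K565, and K562 is used here. ARID4B is a DNA- and chromatin-binding subunit of the SIN3 histone deacetylase complex. All 6 libraries came from cells grown in the same serum-supplemented medium, with no agent named in the labels. The labels name neither a clone, a guide nor a culture for any library, so the p-values reflect how much these libraries vary. Between wild type libraries that may be technical variation alone. The knockout libraries differed far more from each other, as given below, and the source of that was not tested.

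A G protein has an alpha subunit that binds GTP and a beta and a gamma subunit that act as 1 unit. The gamma subunit carries a lipid at its carboxyl end that holds the beta-gamma unit at the membrane, where it meets receptors and its own effectors, such as phospholipase C, phosphoinositide 3-kinase gamma, adenylyl cyclases and inwardly rectifying potassium channels. GNG11 and the transducin gammas GNGT1 and GNGT2 carry the shorter farnesyl group, and the other gamma subunits carry geranylgeranyl. In blood, GNG11 is known as a gene of megakaryocytes and platelets.

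In wild type cells the family was represented almost wholly by GNG5 and GNG10, which are transcribed in most tissues. In the knockout libraries GNG11 and GNG12 were added to them. GNG11 went from 3 counts in each wild type library to between 387 and 762 counts in the knockout libraries, and GNG12 was 8.0-fold higher. GNG10 lay at the same level in both genotypes, and GNG5 was somewhat lower without passing the threshold.

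The targeted gene was read first. ARID4B stood at 38.4, 41.0 and 40.9 CPM (counts scaled to the effective library size) in wild type and at 8.52, 7.22 and 7.68 CPM in knockout, which is 5.13-fold lower (log2 fold change -2.36, SE 0.10, edgeR adjusted p = 0.000132). Totals ran from 21701404 to 30346244 estimated counts per library. Between 16574 and 16818 genes had a count in the wild type libraries and between 18278 and 19173 in the knockout libraries. The 12 erythroid markers, all tested, summed to between 18600 and 20300 CPM in wild type and between 17900 and 33000 CPM in knockout. Replicates of a genotype differed by more than sampling noise, with a chi-square per gene of 2.98 to 7.84 between wild type libraries and of 40.6 to 67.2 between knockout libraries.

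The promoters of 4 genes are shown, since they are the starts of the genes that carry the pattern. They belong to the genes that were higher in knockout, GNG11 (chr7:93921485-93921784, plus strand) and GNG12 (chr1:67833418-67833717, minus strand), and to those that wild type cells already expressed, GNG5 (chr1:84506532-84506831, minus strand) and GNG10 (chr9:111661355-111661654, plus strand). Each is 300 bases from RefSeq (GRCh38.p14), 250 before and 50 after the gene start, written 5′ to 3′ on the strand of the gene. A promoter was found there for 9 of the 10 genes, the exception being GNGT2. Capitals mark matches on either strand to 5 motifs. They were AGATAA for GATA factors, CGGAAG for ETS factors, CCACCC for the CACCC box, TGACG for the core of the CREB site and GGGCGG for SP1.
GNG11: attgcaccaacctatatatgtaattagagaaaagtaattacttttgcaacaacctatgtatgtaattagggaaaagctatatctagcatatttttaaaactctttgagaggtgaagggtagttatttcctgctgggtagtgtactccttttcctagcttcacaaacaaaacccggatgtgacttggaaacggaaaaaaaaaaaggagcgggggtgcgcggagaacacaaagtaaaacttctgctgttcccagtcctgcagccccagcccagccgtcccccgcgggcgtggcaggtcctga
GNG12: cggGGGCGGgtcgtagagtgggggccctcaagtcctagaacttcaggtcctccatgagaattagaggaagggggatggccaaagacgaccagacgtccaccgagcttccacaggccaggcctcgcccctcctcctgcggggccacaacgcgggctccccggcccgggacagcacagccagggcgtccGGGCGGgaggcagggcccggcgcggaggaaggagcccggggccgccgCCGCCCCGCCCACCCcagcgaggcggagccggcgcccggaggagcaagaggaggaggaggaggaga
GNG5: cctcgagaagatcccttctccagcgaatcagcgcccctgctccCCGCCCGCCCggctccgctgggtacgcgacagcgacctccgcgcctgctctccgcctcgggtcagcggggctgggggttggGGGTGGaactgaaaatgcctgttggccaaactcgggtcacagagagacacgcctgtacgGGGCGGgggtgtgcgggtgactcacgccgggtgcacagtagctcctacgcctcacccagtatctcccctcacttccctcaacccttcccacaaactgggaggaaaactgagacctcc
GNG10: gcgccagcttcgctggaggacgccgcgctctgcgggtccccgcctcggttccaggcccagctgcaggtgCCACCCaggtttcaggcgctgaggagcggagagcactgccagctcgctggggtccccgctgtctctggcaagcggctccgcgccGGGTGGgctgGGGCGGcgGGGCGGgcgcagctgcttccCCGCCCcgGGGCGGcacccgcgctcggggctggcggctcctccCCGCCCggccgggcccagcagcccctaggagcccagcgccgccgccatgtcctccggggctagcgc

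The GNG11 promoter differed in composition from the other 3. Its GC content was 44.7% and it held 9 CpG dinucleotides, against a median of 58.7% and of 14 CpG over 35116 RefSeq promoters. The GNG12 promoter had 73.0% GC and 28 CpG, that of GNG5 65.7% and 23, and that of GNG10 78.7% and 35. None of the 5 motifs was found in the GNG11 window. GNG12 held 4 SP1 matches and 1 CACCC match that overlapped the last of them, GNG5 held 3 SP1 matches, of which 2 overlapped each other, and 1 CACCC match, and GNG10 held 5 SP1 and 2 CACCC matches. Over all promoters of this length 45.0% held the SP1 motif, 34.3% the CACCC motif, 24.6% TGACG, 19.5% CGGAAG and 10.3% AGATAA. The GATA, ETS and CREB letters were in none of the 4 windows.

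GNG11 lies on chromosome 7 (hg19, chr7:93551016-93555826). Its level was 0.113, 0.103 and 0.130 CPM in the wild type libraries and 28.1, 34.0 and 16.2 CPM in the knockout libraries. The groups were far apart, and replicate 3 was the lowest of the knockout libraries. The means were 0.115 ± 0.0138 CPM (SD, n = 3) and 26.1 ± 9.04 CPM (SD, n = 3). The log2 fold change was 7.78 (SE 0.41), the 25th highest of the 13696 tested genes. As the wild type counts summed to 9, the ratio of summed counts, 228, has a counting interval of 120 to 500 (exact, 95%). With each library left out in turn the log2 fold change stayed between 7.54 and 8.02. In a bulk library, fewer cells with the gene and less RNA per cell cannot be told apart, here or for any gene below.

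GNG12, a widely expressed gamma subunit that protein kinase C phosphorylates, lies on chromosome 1 (hg19, chr1:68167149-68299155). It stood at 2.85, 3.93 and 3.94 CPM in wild type and at 28.4, 23.4 and 34.1 CPM in knockout. Every knockout library was far above every wild type library, and here replicate 3 was the highest and replicate 2 the lowest of the knockout libraries, the reverse of their order for GNG11. The means were 3.57 ± 0.624 CPM and 28.6 ± 5.36 CPM (SD, n = 3 each), a log2 fold change of 3.0 (SE 0.20). Its antisense transcript GNG12-AS1, whose row overlaps it by 1185 bases, had at most 3 counts in any library. The libraries preserve strand, and the sources used here do not state whether the counting used it.

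GNG5 and GNG10 form the other subfamily that these cells transcribe. GNG5 (hg19, chr1:84964006-84972262) gave 174, 183 and 168 CPM in wild type and 118, 151 and 159 CPM in knockout. All knockout libraries were below all wild type libraries, replicate 1 the furthest. The means were 175 ± 7.32 CPM and 143 ± 22.2 CPM (SD, n = 3 each), and the log2 fold change of -0.29 (SE 0.12) did not pass the threshold. It was past it only without knockout replicate 3, at -0.39. Its row overlaps those of RPF1 by 28 bases and of SPATA1 by 250 bases, so reads at its ends may be split between them.

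GNG10 (hg19, chr9:114423851-114432526) was the steadiest of the family. It stood at 22.6, 22.4 and 24.3 CPM in wild type and at 22.1, 22.1 and 25.0 CPM in knockout. The groups overlapped, and both means were 23.1 CPM (SD 1.02 in wild type and 1.66 in knockout, n = 3 each). The ratio of knockout to wild type summed counts was 1.0, with a counting interval of 0.936 to 1.07. The direction of its fold change depended on the scaling, at 0.11 on the log2 scale with library totals alone, and it passed the threshold under no alternative tried. A readthrough row that joins the chaperone gene DNAJC25 to GNG10 had no count in any library.

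**Figure D1:**
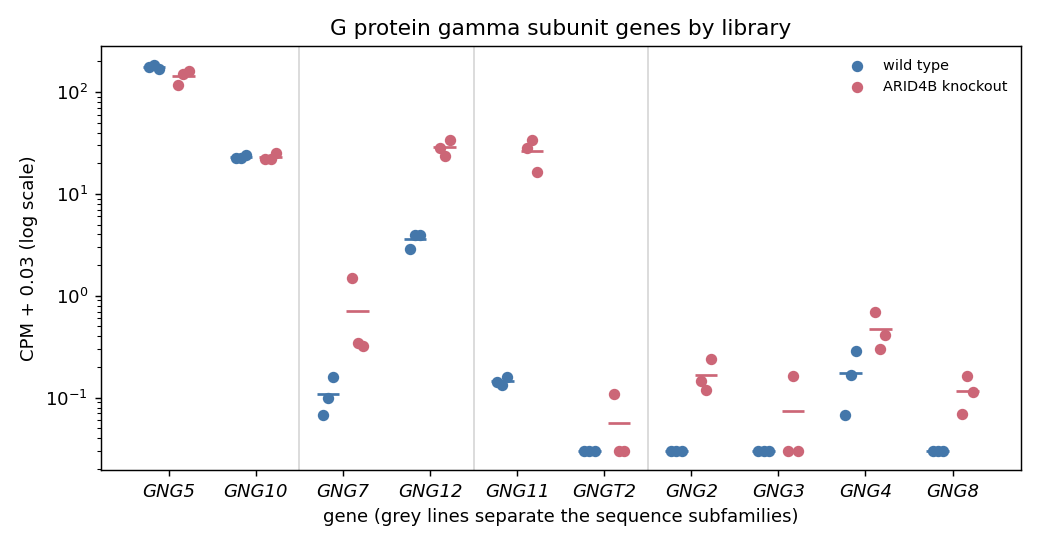
CPM of each of the 10 gamma subunit genes in the 6 libraries, with 0.03 added, on a log axis. Points are libraries (blue wild type, red ARID4B knockout), horizontal bars are means, and grey lines part the sequence subfamilies. GNG11 and GNG12 rise from 0.115 and 3.57 CPM to 26.1 and 28.6 CPM, to about the level of GNG10, while GNG5 stays on top. CPM ignore transcript length, and the order per length is given in the text.

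The other 6 genes were too low for the expression filter and were not tested. GNG7, best known from the striatum, had 1, 2 and 3 counts in wild type and 37, 7 and 7 counts in knockout. All knockout libraries were above wild type, and replicate 1 held most of the counts. The ratio of summed counts was 9.35, with a counting interval of 4.01 to 26.7, and without the filter GNG7 passed the threshold (log2 fold change 3.02). GNG4, a gamma subunit of brain, had 1, 4 and 6 counts against 17, 6 and 9 counts, so that the groups met at 6 counts. Its ratio was 3.20, with an interval of 1.57 to 7.04, and without the filter GNG4 did not pass.

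GNG2, GNG3, GNG8 and GNGT2 had no count in any wild type library. GNG2, found in brain and blood cells, had 3, 2 and 5 counts in knockout, 3.67-fold above a floor of 3 counts over the wild type group. GNG8, of olfactory neurons, had 1, 3 and 2 counts, 2.20-fold above the same floor. GNG3, of neurons, was seen with 3 counts in replicate 2 alone, and GNGT2, the gamma subunit of cone photoreceptors, with 2 counts in replicate 1 alone, which allows no fold. A count of 0 over the wild type group allows up to 0.038 CPM. Intervals cover counting error only. The folds above the floor allow for the counting error of wild type alone, so they are not lower bounds. Without the filter GNG2, GNG3, GNG8 and GNGT2 did not pass the threshold.

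Of the 10 genes, 4 were tested, 2 were higher past the threshold and 0 were lower by edgeR, as by DESeq2 and limma-voom, with 1, GNG5, lower at an unadjusted p under 0.05. Among all tested genes 18.3% were higher and 15.4% lower, 33.7% in all. The groups did not overlap in CPM for 7 of the 10 genes, namely GNG2, GNG4, GNG5, GNG7, GNG8, GNG11 and GNG12. Of these only GNG5, GNG11 and GNG12 were tested, and over all tested genes the share was 52.3%. GNG4 was barely apart, at 0.26 CPM in wild type replicate 3 and 0.268 CPM in knockout replicate 2. In 6 of the 7 genes knockout lay above (26.6% of all tested genes) and in 1, GNG5, below (25.7%). As the genes were chosen on this comparison, nothing is read from these counts. Knockout libraries varied more than wild type libraries, with a median SD of 15.9% of the mean against 5.87% over all tested genes.

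Taken by sequence subfamily, the sums moved in different ways. GNG7 and GNG12 together went from 3.65 ± 0.66 CPM to 29.3 ± 5.37 CPM, and GNG11 with GNGT2 from 0.115 ± 0.0138 CPM to 26.1 ± 9.05 CPM. GNG2, GNG3, GNG4 and GNG8 together remained under 1 CPM in every library, at 0.145 ± 0.111 CPM and 0.706 ± 0.102 CPM. GNG5 and GNG10 together gave 198 ± 6.47 CPM and 166 ± 23.3 CPM (SD, n = 3 for each value). The sum of all 10 was 199, 209 and 197 CPM in wild type and 199, 232 and 236 CPM in knockout, and the groups met at replicate 1. The sum without GNG5 was 25.7, 26.7 and 28.7 CPM against 81.0, 80.4 and 76.3 CPM.

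GNG11 and GNG12 varied in opposite order over the knockout libraries, and their sum varied less than either. Their sum was 56.5, 57.4 and 50.3 CPM in knockout, a mean of 54.7 ± 3.84 CPM. The ratio of GNG11 to GNG12 was 0.992, 1.45 and 0.477 in the 3 knockout libraries and between 0.0261 and 0.0395 in wild type. So the 2 genes were about level in replicate 1, GNG11 led in replicate 2 and GNG12 led in replicate 3.

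As shares of the summed counts of the 10 genes, GNG5 made 87.1%, 87.3% and 85.4% in wild type and 59.2%, 65.3% and 67.7% in knockout. GNG11 made 0.0565%, 0.0489% and 0.0659% in wild type and 14.2%, 14.7% and 6.89% in knockout, where the Wilson 95% intervals ran from 13.2 to 15.2%, 13.7 to 15.6% and 6.26 to 7.58%. The difference between replicate 3 and the other knockout libraries is thus wider than counting error. GNG12 made 1.43%, 1.88% and 2.00% in wild type and 14.3%, 10.1% and 14.5% in knockout. GNG10 kept about the same share, with means of 11.5 ± 0.815% and 10.4 ± 0.82% and overlapping libraries. The 6 low genes together made 0.111 ± 0.0808% and 0.665 ± 0.447% (SD, n = 3). Shares sum to 100%, so a rise of 1 gene lowers the others, and 3 against 3 libraries cannot give an exact permutation p under 0.10.

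**Figure D2:**
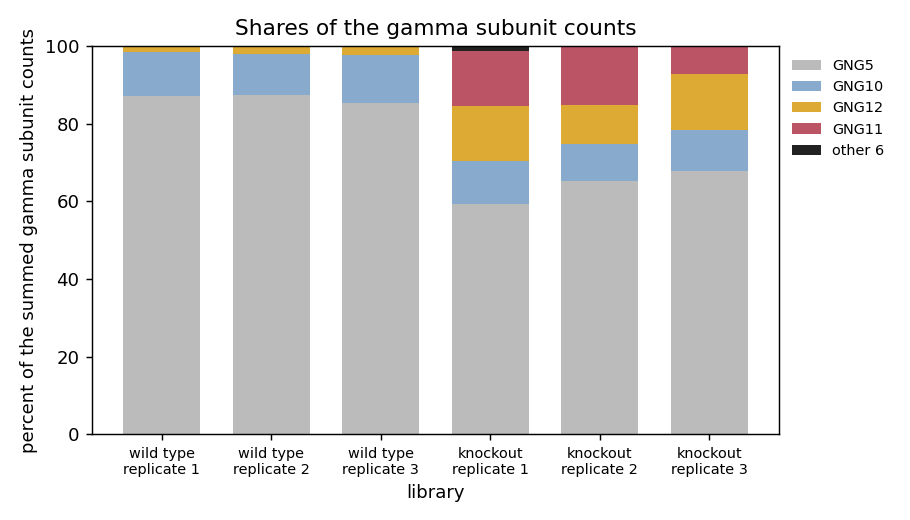
Share of each gene in the summed counts of the 10 gamma subunit genes (percent, y axis) in each library (x axis), as stacked bars. GNG5 makes 85.4 to 87.3% of the counts in wild type and 59.2 to 67.7% in knockout, where GNG11 (6.89 to 14.7%) and GNG12 (10.1 to 14.5%) take up the difference.

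Counts depend on transcript length, so levels were compared between genes per kilobase, with GENCODE lengths matched by RefSeq accession. In wild type the level per length was 221 ± 9.26 CPM per kb for GNG5, 15.5 ± 0.681 for GNG10 and 0.811 ± 0.142 for GNG12 (SD, n = 3), and the libraries of these 3 genes did not overlap. GNG11 followed at 0.0376 ± 0.00452 CPM per kb, and its libraries overlapped those of GNG4 at 0.0368 ± 0.0283. In knockout GNG5 gave 181 ± 28.1, GNG10 15.5 ± 1.11, GNG11 8.55 ± 2.96 and GNG12 6.50 ± 1.22 CPM per kb, and the libraries of GNG11 and GNG12 overlapped. The place of GNG11 in this order depends on its length. The reference transcript has 3055 bases, but the gene spans 2101 bases more there than in the deposited table. With 954 bases its knockout level was 29.5, 35.6 and 17 CPM per kb, above GNG10 (14.8, 14.8 and 16.7) in every library.

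Near GNG11, 2 genes whose start lies within 250 kb of its own were tested, and both rose. TFPI2, a secreted inhibitor of serine proteases whose start lies at -36.3 kb from that of GNG11, had 0, 0 and 1 counts in wild type and 840, 133 and 91 counts in knockout. All knockout libraries were higher, with replicate 1 well ahead of the others (edgeR log2 fold change 9.65, SE 1.46, adjusted p = 0.00444, at most 0.0404 under the alternatives). The ratio of its summed counts was 1170, with a counting interval of 210 to 46300. BET1, a SNARE protein of traffic between endoplasmic reticulum and Golgi that starts 41.1 kb after GNG11, had 24.2, 21.6 and 24.8 CPM in wild type and 33.1, 36.4 and 32.1 CPM in knockout (edgeR log2 fold change 0.52, SE 0.10, adjusted p = 0.00856). Without wild type replicate 2 its adjusted p was 0.0529.

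GNGT1, the gamma subunit of rod photoreceptors, has a row that takes in TFPI2 and ends 10531 bases before GNG11. It had 18 counts over the wild type libraries and 8 over the knockout libraries, a ratio of 0.489 with a counting interval of 0.184 to 1.18. It thus stayed at a few counts in both genotypes beside the large counts of TFPI2 and GNG11 in knockout. Within 2 Mb of GNG11, 22 other genes were tested, of which 6 were higher, 2 lower and 14 not past the threshold. Over all tested genes 18.3% were higher and 15.4% lower, 33.7% in all. Taken in both directions together the count around GNG11 is near that of the whole, with more of it higher. Besides TFPI2 and BET1 the higher genes were PDK4, COL1A2, DYNC1I1 and SAMD9L, at log2 fold changes of 9.32, 4.13, 3.77 and 1.52. The median deviation of the 39 tested genes within 5 Mb from their wild type mean was 0.04, 0.21 and 0.10 on the log2 scale in the 3 knockout libraries, and with this taken out the log2 fold change of GNG11 was 7.65.

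**Figure D3:**
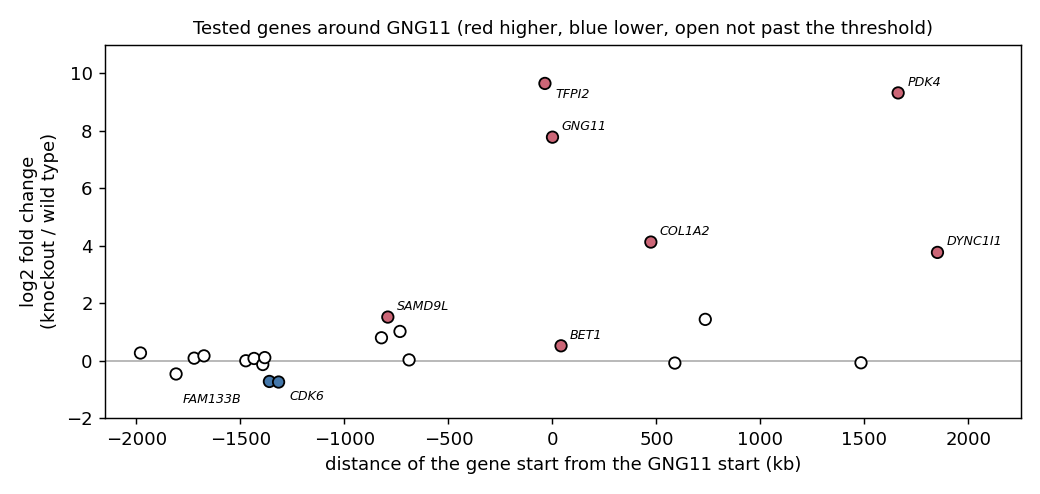
Log2 fold change of knockout over wild type (y axis) of the tested genes within 2 Mb of GNG11, by the distance of their start from the GNG11 start in kb (x axis). Red points were higher and blue points lower past the threshold, and open points did not pass it. TFPI2 and GNG11 stand at 9.65 and 7.78, and BET1 next to them at 0.52. Further off, PDK4 stands at 9.32, COL1A2 at 4.13 and DYNC1I1 at 3.77.

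The other genes had different surroundings. The only tested gene within 250 kb of GNG12 was GADD45A, a stress-induced growth arrest gene, at a log2 fold change of 0.40 that did not pass (edgeR adjusted p = 0.0543). GADD45A was called higher with library totals alone, upper quartile factors, DESeq2, an offset by the median of the genes around it and without knockout replicate 1, and its adjusted p ran from 0.00117 to 0.17 over the alternatives. The 31 tested genes within 5 Mb of GNG12 deviated by a median of -0.47, -0.27 and 0.09 in the knockout libraries, and with this taken out GNG12 was at 3.22. Around GNG5, RPF1, a ribosome biogenesis factor, and SSX2IP, a centrosome protein, were lower among 4 tested neighbours, at log2 fold changes of -0.55 and -0.76 (edgeR adjusted p = 0.0331 and 0.0414). Both lost their call under upper quartile factors or library totals alone, without any 1 wild type library and without knockout replicate 2, and RPF1 also without knockout replicate 1. Over the alternatives the adjusted p reached 0.104 for RPF1 and 0.121 for SSX2IP. The median around GNG5 was -0.13, -0.27 and 0.13, and with it taken out GNG5 stood at -0.19. GNG4 lies 416.5 kb from ARID4B, and of its 4 tested neighbours LYST, a lysosomal trafficking gene, was higher (log2 fold change 1.95, edgeR adjusted p = 0.00247). The others, TBCE, B3GALNT2 and GGPS1, did not pass, at -0.67, -0.39 and -0.17 (edgeR adjusted p = 0.0508, 0.231 and 0.543). TBCE passed under several alternatives, such as DESeq2 and limma-voom. The median of the 34 tested genes within 5 Mb of GNG4 was -0.11, -0.46 and -0.20 in the knockout libraries. Neither tested neighbour of GNG10, DNAJC25 and UGCG, passed the threshold.

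The 5 tested genes whose profile over the 6 libraries lay nearest to that of GNG11, by Euclidean distance on log2(CPM + 0.5), were ETS1, hCG_1995134, ABLIM1, KIRREL and PELI2, at distances of 1.03, 1.46, 1.47, 1.5 and 1.58. ETS1, a transcription factor, had 0.0751, 0 and 0.0865 CPM in wild type and 33.1, 30.7 and 31.7 CPM in knockout. It was as low as GNG11 in wild type and as high in knockout, but level over the knockout libraries. ABLIM1, an actin-binding LIM protein, had 22.5, 45.8 and 8.69 CPM in knockout and KIRREL, a nephrin-like adhesion protein, 15.2, 25.5 and 7.68 CPM, with replicate 2 highest and replicate 3 lowest as for GNG11. PELI2, a ubiquitin ligase of the Pellino family, had 27.3, 14.2 and 23.9 CPM. As the measure follows the difference between genotypes, it picks genes with that difference by construction.

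A gamma subunit acts only with a beta subunit, and most beta subunit genes were not higher in knockout. Of 5 beta subunit genes, all tested, 1 was higher and 2 were lower. GNB1 stood at 386, 402 and 380 CPM in wild type and at 288, 289 and 331 CPM in knockout, lower in every library (edgeR log2 fold change -0.36, SE 0.07, adjusted p = 0.0116). With the median of the genes around it taken out it was at -0.08 and did not pass, and it did not pass without wild type replicate 2. GNB2 was at 256, 243 and 243 CPM against 201, 202 and 203 CPM (edgeR log2 fold change -0.29, SE 0.06, adjusted p = 0.00926), and it passed under every alternative.

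GNB4 had 70.0, 64.6 and 69.4 CPM in wild type and 71.9, 34.8 and 44.7 CPM in knockout and did not pass (edgeR adjusted p = 0.217). Knockout replicate 1 lay just above the wild type libraries and the other knockout libraries below them, and without replicate 1 GNB4 was called lower. GNB3, of photoreceptors, was at 0.752 to 1.09 CPM in wild type and 0.624 to 1.06 CPM in knockout and did not pass (adjusted p = 0.847, edgeR). GNB5, which pairs with RGS proteins of the R7 group rather than with most gamma subunits, went from 1.01, 0.888 and 1.08 CPM to 2.38, 6.82 and 2.10 CPM (edgeR log2 fold change 1.92, SE 0.51, adjusted p = 0.0272). It was lost with limma-voom, with the replicate block and without any 1 wild type library, where the adjusted p reached 0.107. The summed level of the 5 beta subunit genes was 695 to 714 CPM in wild type and 533 to 582 CPM in knockout.

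Few alpha subunit genes passed the threshold. Of 10 genes for Gs and Gi alpha subunits 3 were tested and 0 passed in either direction by edgeR or limma-voom. GNAI3, at 171 to 181 CPM in wild type and 128 to 165 CPM in knockout, was the 1 gene lower at an unadjusted p under 0.05 and by DESeq2 (edgeR adjusted p = 0.0563). Of 6 genes for Gq and G12 alpha subunits 4 were tested and 1, GNAQ, was lower. GNAQ, the alpha subunit that drives phospholipase C beta, stood at 63.9, 70.2 and 65.4 CPM against 55.6, 45.5 and 38.4 CPM (edgeR log2 fold change -0.52, SE 0.14, adjusted p = 0.0272). It did not pass with library totals alone, where it was at -0.40, nor with upper quartile factors or without several of the libraries. GNAZ, a Gi-family alpha subunit of platelets and neurons, was not tested, at 0.15, 0.137 and 0.26 CPM in wild type and 2.34, 1.52 and 0.336 CPM in knockout.

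Among 25 known effectors of beta-gamma, 13 were tested, 5 were higher and 1 was lower (18.3% and 15.4% of all tested genes). The median log2 fold change was 0.51 beside 0.02 over all tested genes. PIK3CG, the catalytic subunit of phosphoinositide 3-kinase gamma that beta-gamma activates, went from 20.8, 22.4 and 22.8 CPM to 50.1, 48.2 and 50.7 CPM. Its knockout libraries agree closely and it passed under every alternative (edgeR log2 fold change 1.17, SE 0.08, adjusted p = 0.000474). ADCY6, an adenylyl cyclase that calcium inhibits, had 0.601, 0.444 and 0.346 CPM in wild type and 42.4, 37.8 and 4.74 CPM in knockout, with replicate 3 far below the others (edgeR log2 fold change 5.91, SE 0.91, adjusted p = 0.0046, and 0.103 with limma-voom). ADCY7, a cyclase that beta-gamma stimulates, was lower, at 102, 104 and 102 CPM against 60.6, 55.5 and 63.2 CPM (edgeR log2 fold change -0.78, SE 0.07, adjusted p = 0.00128).

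The other effectors that were higher were less steady. PLCB2, the phospholipase C most responsive to beta-gamma, was higher by 2.33 on the log2 scale (edgeR adjusted p = 0.0148), PREX1, a Rac exchange factor, by 1.47 (adjusted p = 0.0165) and PLCB1 by 1.61 (adjusted p = 0.0304). Each of the 3 failed to pass in every fit that dropped 1 wild type library, PLCB1 also with the replicate block and with limma-voom, where 3 of the effectors were higher. ADRBK1, the receptor kinase that beta-gamma recruits, stood at 102 to 114 CPM in wild type and 93.2 to 120 CPM in knockout and did not pass (edgeR adjusted p = 0.752).

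Of 13 genes that fold or assemble the beta-gamma unit, 12 were tested, 0 were higher and 8 were lower (18.3% and 15.4% of all tested genes), and the median log2 fold change was -0.37. None was higher at an unadjusted p under 0.05 or by DESeq2 or limma-voom. The genes that fell were 7 subunits of the chaperonin CCT, which also folds actin and tubulin, and PDCL3. CCT6A was at 710, 748 and 740 CPM in wild type and 522, 527 and 523 CPM in knockout (edgeR log2 fold change -0.48, SE 0.05, adjusted p = 0.00201, and 0.168 with the median of the genes around it taken out). CCT2 was lower by the same amount (-0.48, edgeR adjusted p = 0.0058), and PDCL3, a phosducin-like cofactor of CCT, was at -0.60 (adjusted p = 0.0111), lost without wild type replicate 2 or 3. PDCL, the phosducin-like protein that releases the beta subunit from CCT onto gamma, was at 0.03 and did not pass (edgeR adjusted p = 0.866). With library totals alone 5 of the 8 passed.

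Of 8 genes that make the lipid tail or trim the carboxyl end, all tested, 0 were higher (0 also at an unadjusted p under 0.05, by DESeq2 and by limma-voom) and 2 were lower. They were ZMPSTE24, a protease of prenylated proteins (log2 fold change -0.64, edgeR adjusted p = 0.00321), and ICMT, which methylates the prenylated cysteine (-0.62, edgeR adjusted p = 0.0054). The farnesyltransferase subunits FNTA and FNTB, of which GNG11 is a substrate, and PGGT1B, of the prenyl transferase that modifies GNG12, did not pass, at -0.09, -0.43 and -0.03 (edgeR adjusted p = 0.294, 0.078 and 0.877).

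Receptors of platelets and megakaryocytes that signal through G proteins were higher in part. Of 18 genes 9 were tested, 5 were higher and 0 lower (0 also at an unadjusted p under 0.05, by DESeq2 and by limma-voom). The median log2 fold change was 1.03, and over all tested genes 18.3% were higher and 15.4% lower. F2RL2, with 5, 7 and 0 counts in wild type, and GPR56, with 4, 6 and 5, passed the expression filter only through their knockout libraries. Such genes can enter only as higher, which tilts the count and the median upward. P2RY12, ADRA2A and LPAR1 had no count in any library. F2R, the main thrombin receptor of human platelets, went from 19.6, 20.7 and 22.8 CPM to 47.8, 43.0 and 31.3 CPM (edgeR log2 fold change 0.95, SE 0.17, adjusted p = 0.00665). LPAR5, a receptor for lysophosphatidic acid, was at 1.28 (edgeR adjusted p = 0.00482), TBXA2R, the thromboxane receptor, at 1.03 (adjusted p = 0.00935), GPR56 at 2.53 (adjusted p = 0.0081) and F2RL2 at 3.89 (adjusted p = 0.0164). The last 2 were lost without wild type replicate 1 or 2, and TBXA2R without wild type replicate 3. Other receptors of the same cells, F2RL3, P2RY1 and PTGER3, did not pass, at -0.43, -0.09 and 0.07 (edgeR adjusted p = 0.181, 0.754 and 0.831).

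Platelet markers moved beside these genes. Of 12 megakaryocyte and platelet markers 5 were tested and 3 were higher, namely ITGA2B, ITGB3 and GP6, at log2 fold changes of 3.97, 4.87 and 1.80 (edgeR adjusted p = 0.00272, 0.000535 and 0.00211). The summed level of all 12 markers was 39.6 to 41.4 CPM in wild type and 188, 231 and 125 CPM in knockout. Of this sum TUBB1, which did not pass, held 24.3, 25.9 and 23.7 CPM in wild type. The order of the knockout libraries differed between the markers. ITGB3 (20.3, 26.7 and 13.1 CPM) and GP6 (45.4, 50.8 and 29.4 CPM) were highest in replicate 2 and lowest in replicate 3, as GNG11 was. ITGA2B (71.7, 50.8 and 18.8 CPM) was highest in replicate 1, as were PPBP and SELP, and TUBB1 (25.1, 91.7 and 63.2 CPM), which did not pass, was lowest there. Markers of fibroblasts summed to 0.273 to 0.976 CPM in wild type and 9.40 to 29.1 CPM in knockout, mostly COL1A1, and epithelial markers to 771 to 821 CPM and 802 to 1770 CPM, mostly the keratins KRT8 and KRT18. EPCAM, of the same list, was lower in knockout, at 82.0, 79.6 and 83.4 CPM against 13.4, 18.9 and 28.9 CPM (edgeR log2 fold change -2.0, SE 0.26, adjusted p = 0.00292). Mast cell markers summed to 0.188 to 0.303 CPM and 1.64 to 5.44 CPM, endothelial ones to 1.8 to 2.12 CPM and 2.5 to 6.8 CPM, lymphoid ones to 4.54 to 4.77 CPM and 4.92 to 14.4 CPM, and myeloid ones to 20.5 to 21.5 CPM and 15 to 52.2 CPM. The part of these markers in the levels of GNG11, GNG12 or the receptors was not tested.

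**Figure D4:**
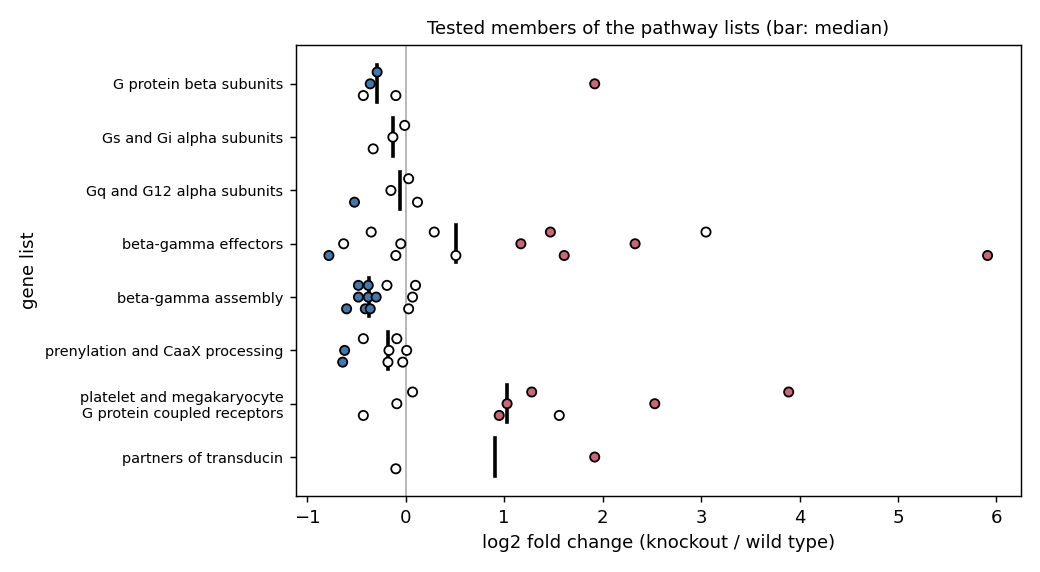
Log2 fold change of knockout over wild type (x axis) of each tested gene in 8 lists of G protein genes (y axis). Red points were higher and blue points lower past the threshold, open points did not pass, and black bars are medians. Most assembly genes lie below 0, with a median of -0.37, and platelet receptors have a median of 1.03. Of these receptors F2RL2 and GPR56 passed the filter only through their knockout libraries.

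Over all 8 lists, 91 distinct genes gave 54 tested ones, of which 11 were higher, 14 lower and 29 not past the threshold, so that 46.3% passed beside 33.7% of all tested genes. The authors' deposited table, which lists 3153 genes, holds 3 of the 10 gamma subunit genes. In the authors' deposited table GNG11 has a log2 fold change of 7.49 (adjusted p = 0.00697), GNG12 of 3.24 (adjusted p = 0.00613) and GNG7 of 2.43 (adjusted p = 0.146). GNG5 and GNG10 are not listed in it.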

How the data were processed

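Messenger RNA of 3 wild type and 3 ARID4B knockout libraries of K562 cells was sequenced as stranded paired ends, per the labels' protocols. STAR 2.4 and RSEM 1.2.14 with hg19 (GRCh37) are named in the submitters' processing notes, without a role or order. The main table holds estimated counts per gene that the authors deposited without normalization. Per library, 6.9 to 11.7% of all values, zeros included, were not whole. The authors' deposited comparison gives log2 fold changes with an unadjusted and an adjusted p-value, and the sources used here do not say how it was tested.

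Estimated counts were rounded. Genes were filtered with filterByExpr (minimum count 10), scaled by TMM and fitted with edgeR 4.0.16 (quasi-likelihood F test, R 4.3.3) over 13696 genes, with Benjamini-Hochberg adjustment over all of them and a threshold of 0.05 on the adjusted p. CPM are counts scaled to the effective library size and ignore transcript length, and fold changes are relative to the bulk of genes. Low genes are limited by depth: 1 count is about 0.04 CPM. Alternatives were other scalings, no filter, DESeq2 1.42.0, limma-voom (limma 3.58.1), the replicate number as a block, each library left out, and an offset by the median deviation of the genes within 5 Mb. On simulated counts edgeR called 22% of genes changed 1.5-fold, 70% changed 2-fold, 88% changed 4-fold and 98% changed 8-fold. There, 50 genes above 1 CPM were raised at each fold and 13315 tested genes were unchanged. In the data 33.7% of tested genes passed, which makes the adjusted threshold less strict, so these shares do not carry over to the data.

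The members and gene lists were chosen with earlier results of these data known. Genes named were all 10 members and ARID4B, lists of 5 or fewer genes in full and the 5 genes nearest to GNG11. From each list came up to 3 genes passing the threshold in each direction, with the largest change and at least 1 CPM in the higher group. Tested neighbours within 250 kb were named in part, and none for GNG2, GNG3, GNG7, GNG8 and GNGT2. Further list genes, markers and neighbours were named after their values were seen. Those past the threshold were PIK3CG, PREX1, F2R, TBXA2R and the markers ITGA2B, ITGB3, GP6, COL1A1, KRT8, KRT18 and EPCAM. To these come PDK4, COL1A2, DYNC1I1 and SAMD9L, within 2 Mb of GNG11. The rest of them did not pass or were not tested. Coordinates of genes are hg19 as deposited and those of promoters GRCh38.p14, and no coordinate was converted. One marker gene is not reported here.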

Additional observations from a re-analysis of the deposited data

How the results depend on the processing

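GNG11 and GNG12 passed the threshold as higher under every alternative tried, at log2 fold changes of 7.54 to 8.02 and 2.84 to 3.12 with each library left out in turn. The count of gamma subunit genes called higher was 2 in each such fit and 3 without the expression filter, which added GNG7, and the count called lower was 0 to 1, the 1 being GNG5. With each library left out, the genes called over the whole table ranged from 1156 to 2921 higher and from 941 to 2548 lower (2512 and 2107 with all), the low ends without a wild type library, and those of the 8 lists from 5 to 17 higher and from 8 to 17 lower (11 and 14 with all). Library totals alone gave 3120 higher and 1283 lower, so that 70.9% of calls were higher (54.4% with TMM), and moved the median of all genes to 0.13 on the log2 scale, and upper quartile factors gave 67.0% and 0.11.

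Per length in place of counts, the share of GNG5 was 93.1% in wild type and 85.1% in knockout, that of GNG10 6.53% and 7.35%, that of GNG11 0.0159% and 4.12%, and that of GNG12 0.341% and 3.09%. With the shorter GNG11 length, chosen after seeing the data, the knockout shares were 78.1% for GNG5, 6.74% for GNG10, 12% for GNG11 and 2.84% for GNG12, and the wild type shares were 93.1%, 6.53%, 0.0508% and 0.341%. With a library left out, knockout shares ranged from 62.3 to 66.5% (GNG5), 10.1 to 10.9% (GNG10), 10.5 to 14.4% (GNG11) and 12.2 to 14.4% (GNG12), and wild type shares from 86.3 to 87.2%, 11 to 11.8%, 0.0527 to 0.0612% and 1.65 to 1.94%.

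Of 336 values of 24 named genes under the alternatives, 303 stayed on the same side of the threshold, 31 were lost and 2 gained, with 11 genes losing a call, 9 of them without a wild type library. The cause was not tested. Deviations of same-numbered libraries of the genotypes had correlations of 0.008, 0.002 and 0.015, and those of differently numbered ones -0.013 to 0.004. Whether the numbers mark pairs cannot be told from this, since knockout libraries varied far more than wild type libraries. The replicate block gave 1872 higher and 1577 lower genes, with 2 gamma subunit genes still higher and 9 higher and 13 lower list genes.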

Other observations

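The tested genes nearest to GNG12 by the same measure of distance, looked up after the values of GNG12 were seen, were PPIC, HEY1, ELOVL7, ARHGAP25 and SMOX, at distances of 0.674 to 0.965 over the 6 libraries. PPIC, cyclophilin C, had 3.45, 3.14 and 3.89 CPM in wild type and 33.4, 33.3 and 36.8 CPM in knockout (edgeR log2 fold change 3.30, SE 0.13, adjusted p = 9.43e-05). HEY1, a repressor downstream of Notch, had 20.5, 15.0 and 31.3 CPM in knockout, highest in replicate 3 and lowest in replicate 2 as GNG12 was. None of the 5 was also among the 5 nearest to GNG11.

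The receptor gene PTGIR, for prostacyclin, starts 13.6 kb before GNG8. It was too low for the expression filter, at 2, 5 and 4 counts in wild type and 47, 21 and 6 counts in knockout, and the authors' deposited table gives it a log2 fold change of 2.4 (adjusted p = 0.15).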
